A study of Drosophila melanogaster with 3 samples.

Results

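The genes described here are 10 genes of Drosophila melanogaster that encode insulator and interband proteins: Chro, pzg, BEAF-32, CTCF, Cp190, su(Hw), mod(mdg4), Trl, Ibf1 and Ibf2. All 10 were found by symbol among 18164 annotated genes on the main chromosome arms. The list was chosen by the known function of the proteins, with peak signals of this series already in view, so the peaks at these genes are given as a description and carry no test. The series holds a single group of 3 libraries, biological replicates numbered 1 to 3 in the labels, made by chromatin immunoprecipitation and sequencing (ChIP-seq). The material was whole prepupae aged 24 hours, both sexes pooled, of a stable transgenic line in which salr, a zinc finger transcription factor of the spalt family, carries green fluorescent protein at its C terminus. All libraries share that transgene and a control file, there is no untagged or untreated group, and whole animals mix many tissues, so the tissue behind a peak cannot be told. The labels do not say what drives the transgene or how many copies the line carries. The labels disagree on what the libraries are: their free text says input control, while the assay title and antibody field name an immunoprecipitation of salr. They are read here as the assay title gives them.

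Insulator proteins separate neighbouring regulatory domains in chromatin and gather at the borders of topological domains. In flies, BEAF-32, CTCF, su(Hw), Ibf1, Ibf2 and the GAGA factor encoded by Trl bind DNA directly, each at its own sequence. Cp190 and the many proteins made from mod(mdg4) are cofactors with a BTB domain that these DNA-binding proteins recruit. Chro (Chromator) and pzg (Z4) form a complex found at the interbands of polytene chromosomes, the decondensed stretches that hold the promoters of broadly active genes.

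The authors deposited 4 lists of 30000 peaks, 1 per library and 1 from the pooled alignments, and a shorter list, 3839 peaks, kept at a threshold on the irreproducible discovery rate (IDR), a measure of agreement between replicates. Around the genes described here, all 14 peaks of the IDR list had the same rank in the pooled list. Every other pooled peak there ranked lower than place 3839. At these genes the IDR list thus held the strongest pooled peaks, and being in it does not mean that each library listed the peak. Peaks are described by their summit, the position of highest signal. The deposited signal of a peak has no stated scale. Relative signal is that signal divided by the median of all 30000 peaks in the same library, so a value of 1 is a middling peak of a list that includes background. Read depth is unknown, since the files hold no counts. A summit was taken as present in a library when that library listed one within 100 bp.

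The sequences below carry the positions that the results turn on. All are from the Release 6 reference genome (dm6), plus strand, 5′ to 3′, and capitals mark 3 kinds of word: CGATA, which BEAF-32 binds, GAGAG, which the GAGA factor binds, and AATATT, made of A and T only as are sites reported for spalt proteins. Each was searched on either strand. The first pair are 25 bases around the CGATA word nearest the Chro summit and around the one at the pzg summit. The others are 101 bases centred on a summit, except the gap, which is the 120 bases between opposed starts of mod(mdg4) precursor transcripts.
Chro, CGATA site, chr3L:22878882-22878906: tattgcctgtCGATAgctttaaact
pzg, CGATA site, chr3L:21285910-21285934: ataattacgtTATCGtaatgaacgg
Cp190, summit upstream of the gene, chr3R:15275348-15275448: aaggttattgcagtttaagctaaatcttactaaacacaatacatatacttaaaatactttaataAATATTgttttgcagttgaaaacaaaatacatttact
Trl, strongest summit, in an intron, chr3L:14759466-14759566: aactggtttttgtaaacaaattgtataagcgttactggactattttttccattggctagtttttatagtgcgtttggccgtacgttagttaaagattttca
Trl, summit upstream of inner starts, chr3L:14758165-14758265: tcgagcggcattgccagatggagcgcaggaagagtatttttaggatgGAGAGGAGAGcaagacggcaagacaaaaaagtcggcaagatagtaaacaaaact
mod(mdg4), summit in an intron, chr3R:21376369-21376469: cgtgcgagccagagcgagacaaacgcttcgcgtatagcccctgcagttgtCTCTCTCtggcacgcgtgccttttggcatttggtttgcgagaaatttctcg
mod(mdg4), between mod(mdg4) and tin, chr3R:21378723-21378823: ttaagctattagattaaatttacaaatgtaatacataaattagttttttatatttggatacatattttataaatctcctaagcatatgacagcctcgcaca
mod(mdg4), gap, chr3R:21365489-21365608: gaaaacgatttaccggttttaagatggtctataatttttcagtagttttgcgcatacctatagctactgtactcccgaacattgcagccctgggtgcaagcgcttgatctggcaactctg

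A second set shows TATCGATA, known as the DRE, which contains the CGATA of BEAF-32 and is also bound by the factor DREF. The word stood within 50 bp of a transcription start site (TSS) of CTCF, Cp190, Ibf1 and Ibf2, and 25 bases around each site are given, with the word in capitals. 3 of these genes, CTCF, Ibf1 and Ibf2, had no IDR summit at the promoter.
CTCF, 18 bp upstream of its TSS, chr3L:7356719-7356743: ccgccagcTATCGATAgttcgattg
Ibf2, 4 bp upstream of its TSS, chr3R:9258493-9258517: aaccgatgTATCGATAacatgccat
Ibf1, 36 bp upstream of its TSS, chr3R:9258916-9258940: aatggtttTATCGATAtgtcgatac
Cp190, 18 bp upstream of its inner TSS, chr3R:15274796-15274820: ctcgcaaaTATCGATAtacgcctgt
Cp190, at its outer TSS, chr3R:15275230-15275254: tcggcagcTATCGATAgccatgcga

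An IDR summit lay within 1000 bp of a TSS of 7 members: Chro, pzg, BEAF-32, Cp190, su(Hw), mod(mdg4) and Trl. The same held for 13.5% of all genes and 14.8% of protein-coding genes, and the list was made with such peaks in view, so nothing is read from the difference. The same 7 had an IDR summit in the gene body plus 5 kb on each side, a window that caught 34.4% of all genes. In the pooled list 8 members had a promoter summit, CTCF being the addition, against 43.5% of all genes. The count of 7 rested on weak peaks: 3 members, Chro, Cp190 and Trl, were left when IDR peaks below the median signal were dropped, where 7.71% of all genes had a summit. Among IDR peaks that are also among the strongest peaks of both remaining libraries, the count was 3 without library 1, 4 without library 2 and 4 without library 3. The shares of all genes under those settings were 7.36%, 9.20% and 8.38%.

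**Figure D1:**
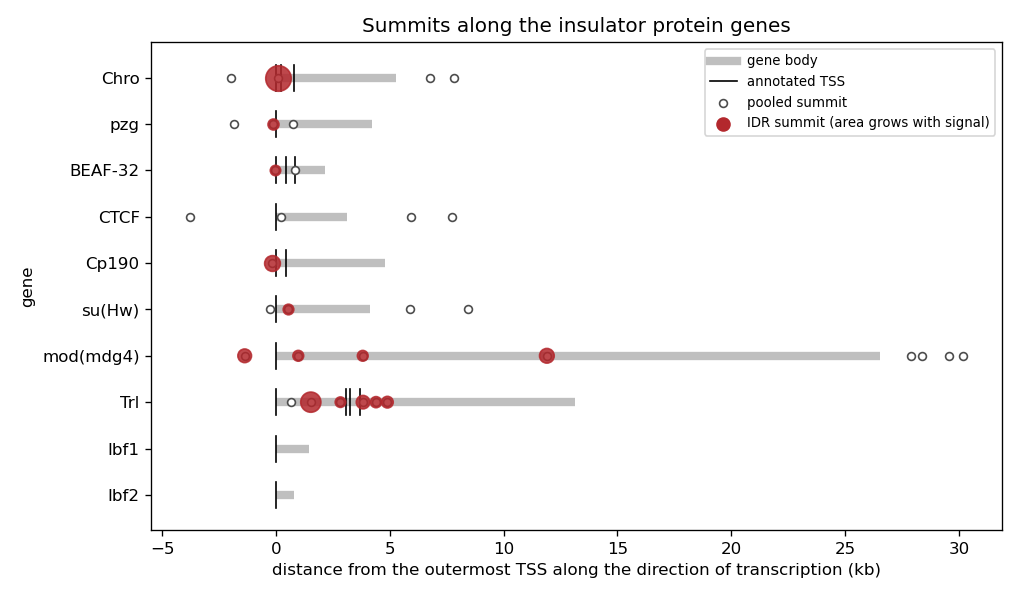
Summits of the IDR list (filled, area growing with deposited signal) and of the pooled list (open) along each gene, in kb from the outermost TSS in the direction of transcription, with gene bodies in grey and annotated TSSs as ticks. The largest symbol is the Chro summit, 106 bp inside the gene, and Trl and mod(mdg4) are the genes with more than 1 IDR summit, with 5 and 4.

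The 14 IDR summits in the 10 windows were not alike in strength or in place. Of these, 9 lay within 1000 bp of a member's own TSS, 3 only within that distance of a TSS of another annotated gene, and 2 farther from any TSS. Their deposited signals ran from 112.0 at BEAF-32, just above the lowest of the IDR list (111.9), to 1673 at Chro.

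Chro carried the strongest peak of the group by far. The gene (FBgn0044324) runs on the minus strand of 3L from 22873702 to 22878984, and the peak spans 22878744 to 22879041. Its relative signal was 33.7 in library 1, 24.4 in library 2 and 33.1 in library 3, with ranks of 9, 14 and 9 among the 30000 peaks of each. Library 2 was the lowest and libraries 1 and 3 were close, for a mean of 30.4 ± 5.22 (SD, n = 3). The summit sat between TSSs of Chro itself, 106 bp downstream of the outermost, in the 5 prime UTR, and 211 bp upstream of Ssl1, a subunit gene of the transcription and repair factor TFIIH that points the other way. The outermost starts of Chro and Ssl1 are 105 bp apart, so a peak there cannot be assigned to either gene. It stood at place 8 among 1906 IDR promoter peaks. The other 3 pooled summits of the window were weak, and all of them lay at the promoters of neighbours: Arf1, a GTPase gene of Golgi traffic, CG11109 and slif, an amino acid transporter gene.

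The partner of Chro in the interband complex, pzg, had a much weaker peak. The gene (FBgn0259785) runs on the plus strand of 3L from 21286099 to 21290310, with the peak from 21285783 to 21286126. The summit was 144 bp upstream of pzg and 7 bp inside CG12974, which is transcribed in the opposite direction from a start 137 bp away. Relative signal was 4.25 in library 1 and 3.19 in library 3, for a mean of 3.72 ± 0.749 (SD, n = 2). Library 2 listed its nearest summit 105 bp away, just beyond the matching distance, at a relative signal of 2.02. Each library therefore held a summit at this promoter, and library 2 the weakest. The Chro values of 24.4 to 33.7 lay clear of every pzg value.

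Among the cofactor genes, Cp190 had a single IDR summit, and it was the only summit of the pooled list in its window. The gene (FBgn0000283) runs on the minus strand of 3R from 15270432 to 15275241, and the peak, from 15275368 to 15275532, lies between it and CG4338. The summit was 157 bp upstream of Cp190 and 124 bp upstream of CG4338, whose start is 281 bp away on the other strand. Relative signal was 8.55 in library 1, 6.47 in library 2 and 12.3 in library 3, a mean of 9.09 ± 2.93 (SD, n = 3). Library 3 was highest here, and the ranks were 385, 481 and 240. The 101 bases at this summit, shown above, had the lowest GC content of the 14 windows, 21.8%. The TATCGATA words at its 2 starts lie outside that window.

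The mod(mdg4) locus makes its many proteins by trans-splicing, joining common exons to variable exons that are transcribed separately, in part from the other strand. The annotation lists those as pre-mod(mdg4) genes within mod(mdg4) (FBgn0002781, 3R, minus strand, 21350846 to 21377401). Of its 4 IDR summits, the strongest was not at the main start but 11902 bp inside the gene. It lay in the gap printed above, 11 bp upstream of pre-mod(mdg4)-E on the minus strand and 110 bp upstream of 7 precursors on the plus strand, among them pre-mod(mdg4)-V and pre-mod(mdg4)-W. Relative signal there was 8.49 in library 1 and 5.94 in library 2, with a mean of 7.22 ± 1.80 (SD, n = 2). The nearest summit of library 3 was 13325 bp away.

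A weaker summit 3814 bp inside the gene was also at precursor starts, 12 bp upstream of pre-mod(mdg4)-AA, pre-mod(mdg4)-N and pre-mod(mdg4)-O, at 3.30 in library 1 and 1.99 in library 2. The intronic summit 982 bp from the main start and at the edge of the promoter distance, had 2.85 in library 1 and 2.29 in library 2. Library 3 again lacked both, its nearest summits being 5237 and 2405 bp away. The last of the 4 lay 1372 bp upstream of mod(mdg4) and 204 bp upstream of tin, the tinman homeobox gene of heart development, and was the only one listed in every library. It had 6.89, 6.62 and 5.80 in libraries 1, 2 and 3, a mean of 6.43 ± 0.569 (SD, n = 3), so its values hardly varied. Among the 500 strongest IDR peaks of the genome 9 (1.80%) were unmatched in library 3, against 1 in library 1 and 4 in library 2, and the summit in the gap, at rank 484, is one of those 9. The other mod(mdg4) summits that library 3 lacked, at ranks 2947 and 3064, lie outside the 500. Over all 3839 IDR peaks the unmatched share was 7.68% in library 3, 7.55% in library 2 and 3.49% in library 1. The mod(mdg4) summits that library 3 lacked all lie within 1000 bp of an annotated TSS. Of the 1906 IDR promoter peaks, 88.5% were matched in library 3, 92.5% in library 2 and 96.1% in library 1. The part that library 3 as a whole plays in this was not tested.

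Trl, the gene of the GAGA factor (FBgn0013263, 3L, minus strand, 14747929 to 14761049), held 5 IDR summits, more than any other member, all within the gene. The strongest lay in an intron, from 14759365 to 14759669, with its summit 1533 bp downstream of the outermost TSS and beyond 1000 bp of any annotated TSS. Its relative signal was 17.7, 12.4 and 21.1 in libraries 1, 2 and 3, a mean of 17.1 ± 4.40 (SD, n = 3), and it ranked 63 in the pooled list, second among members to Chro. No word of the set searched occurs in its 101 bases.

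The remaining Trl summits clustered around its 3 inner starts, of which the first is shared with CG42507. The summit 113 bp downstream of the inner start nearest to it had 5.80, 5.30 and 5.92 in libraries 1, 2 and 3. Of the IDR summits matched in all 3 libraries this one had the smallest SD, with a mean of 5.68 ± 0.330 (SD, n = 3). By contrast, the summit 684 bp downstream had 1.26 in library 1, 5.60 in library 2 and 2.07 in library 3, a spread of 2.31 (SD) around a mean of 2.97. Library 2 stood above the others there, and at the summit 1184 bp downstream it listed none within 100 bp (nearest at 156 bp), while libraries 1 and 3 had 3.58 and 5.94. The summit 253 bp upstream of the first inner start, which holds adjoining GAGAG words, had 3.26 in library 2 and 2.81 in library 3 and no match in library 1.

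At su(Hw) (FBgn0003567, 3R, minus strand, 14304455 to 14308589), whose protein binds the insulator of the gypsy retrotransposon, the IDR summit was inside the transcript. It lay 514 bp downstream of the TSS, in the 5 prime UTR, with the peak from 14307903 to 14308246. Its values were low but present throughout, 1.96 in library 1, 2.61 in library 2 and 1.64 in library 3, a mean of 2.07 ± 0.491 (SD, n = 3). A pooled summit 275 bp upstream, in the space that su(Hw) shares with Polr2I, a gene for an RNA polymerase II subunit, was not in the IDR list and had no match within 100 bp in any library. Library 1 listed a summit in the same space, 191 bp from the pooled one and 466 bp upstream of su(Hw), at 1.47.

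BEAF-32 (FBgn0015602, 2R, plus strand, 14770469 to 14772630) sat at the lower end of the IDR list. The summit 34 bp upstream of its first TSS ranked 3834 of 3839, with a deposited signal of 112.0, and was found in library 1 alone, at a relative signal of 1.26. A neighbouring summit, 12 bp downstream of its innermost TSS, had a deposited signal of 104.6, ranked 4231 in the pooled list and so fell just outside the IDR list. It was nonetheless listed in all libraries, at 1.58, 0.944 and 2.47 in libraries 1, 2 and 3. Of these neighbouring summits, the one inside the list was therefore seen in fewer libraries than the one outside it. Membership of the list went with the pooled rank here, 3834 against 4231.

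CTCF (FBgn0035769, 3L, minus strand, 7353578 to 7356713), the fly homolog of the vertebrate boundary factor, had no IDR summit in its window and 4 pooled ones. The one at its own promoter, 203 bp downstream of the TSS in an intron, had a relative signal of 1.32 in library 3 and no match in the other libraries. Library 1 instead listed a summit 30 bp downstream of the TSS at 2.04, and library 2 one 272 bp upstream at 0.636. The libraries thus each placed a weak summit at this promoter, at positions more than 100 bp apart.

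Ibf1 (FBgn0037670, 3R, plus strand, 9258964 to 9260400) and Ibf2 (FBgn0037669, 3R, minus strand, 9257727 to 9258501) encode partner proteins that bind DNA and recruit Cp190, and they stand head to head with 463 bp between their starts. Neither the IDR nor the pooled list had a summit in their shared surroundings (0 each). Library 1 listed a summit 196 bp inside Ibf2 at 1.49 and one 330 bp inside Ibf1 at 1.58, both in coding exons. Library 2 had a pair of weak summits at the next gene, ATP6AP2, and library 3 none.

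The members were ordered by mean relative signal of the strongest IDR summit within 1000 bp of their own TSSs. They ran Chro, Cp190, Trl, pzg, mod(mdg4), su(Hw) and BEAF-32. The mod(mdg4) summit in the gap, at a mean of 7.22, lies at starts of pre-mod(mdg4) genes and does not count here. The values of Chro, Cp190 and Trl did not overlap between neighbours in that order, although Cp190 exceeded Trl by little more than its own SD. The ranges of mod(mdg4), 2.29 to 2.85, and su(Hw), 1.64 to 2.61, overlapped, and with the library 2 value of 2.02 included pzg overlapped both. The median of the 7 means was 3.72, which is the pzg value, against 3.61 for all 1906 IDR promoter peaks. With matching within 200 bp, which takes in the library 2 summit of pzg, the members' median was 3.15. In deposited pooled signal the medians were 149.2 for the members and 195.3 for the promoter peaks. In every library the strongest summit was found for 4 of the 7 (Chro, Cp190, Trl and su(Hw)), while 79.2% of all IDR promoter peaks were matched in all 3. These comparisons are not like for like. A member counts by its strongest promoter summit alone, while the genome-wide set holds every IDR promoter peak, weaker ones at the same gene included.

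**Figure D2:**
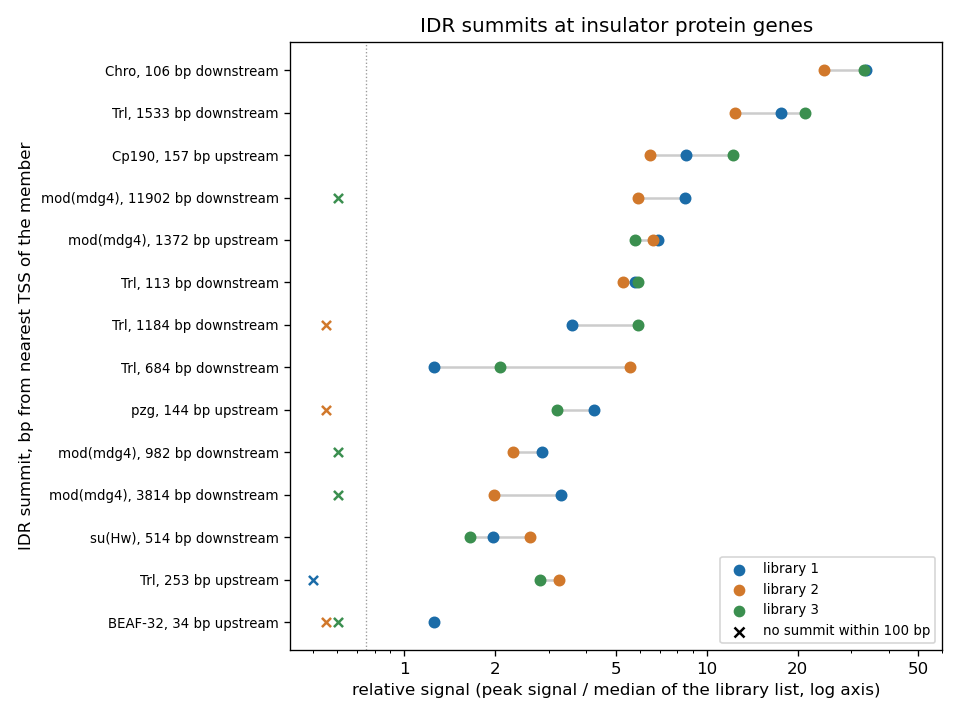
Relative signal of the 14 IDR summits in each library on a log axis, in order of deposited signal, with a grey line over the range and a cross at the left, which has no value on the axis, where a library listed no summit within 100 bp. Chro runs from 24.4 to 33.7, library 3 is missing at 3 of the 4 mod(mdg4) summits, and BEAF-32 is present in library 1 alone.

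**Figure D3:**
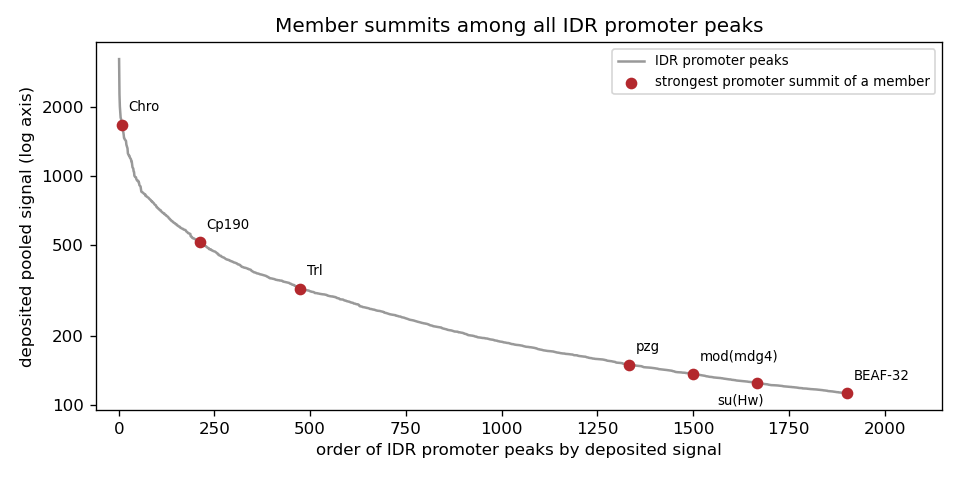
Deposited signal of all 1906 IDR promoter peaks in order (grey line, log axis), with the strongest summit at an own TSS marked for 7 members. Chro is at place 8, Cp190 at 212 and Trl at 474, while pzg, mod(mdg4), su(Hw) and BEAF-32 fall between 1332 and 1903.

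The libraries differed in how many summits they placed around these genes. The 10 windows held 51 distinct summits of library 1, 65 of library 2 and 18 of library 3, although each list has the same length, and 32 of the pooled list. Counted gene by gene, this came to 3.26, 4.04 and 1.09 summits per 10 kb in libraries 1, 2 and 3, against 2.47, 2.48 and 2.02 for 13945 protein-coding genes. Libraries 1 and 2 thus placed more summits here than around genes at large, and library 3 fewer. The pooled list had 1.93 per 10 kb at members against 2.19 at protein-coding genes. The IDR list had 0.845 against 0.351, and the members were chosen with such peaks in view. Within 1000 bp of a TSS, library 3 had 1.99 times as many summits per TSS at members as at protein-coding genes. That was the lowest of the libraries, beside 2.40 in library 1 and 2.16 in library 2. Library 3 placed 10 distinct summits at member TSSs, 4 of them at Trl, against 19 each in libraries 1 and 2. A promoter summit was listed for all 10 members in library 1, for 8 in library 2 and for 7 in library 3, against 51.5%, 48.6% and 38.7% of all genes.

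Most of the extra summits were weak. Of the 65 of library 2, 41 had no pooled summit within 100 bp, and their median relative signal was 0.970. In library 1 it was 26 of 51, with a median of 0.973. In library 3 only 2 of 18 lacked a pooled counterpart, at 0.751 and 0.769. Over the whole lists the unmatched share was 47.6%, 48.1% and 44.5% in libraries 1, 2 and 3.

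**Figure D4:**
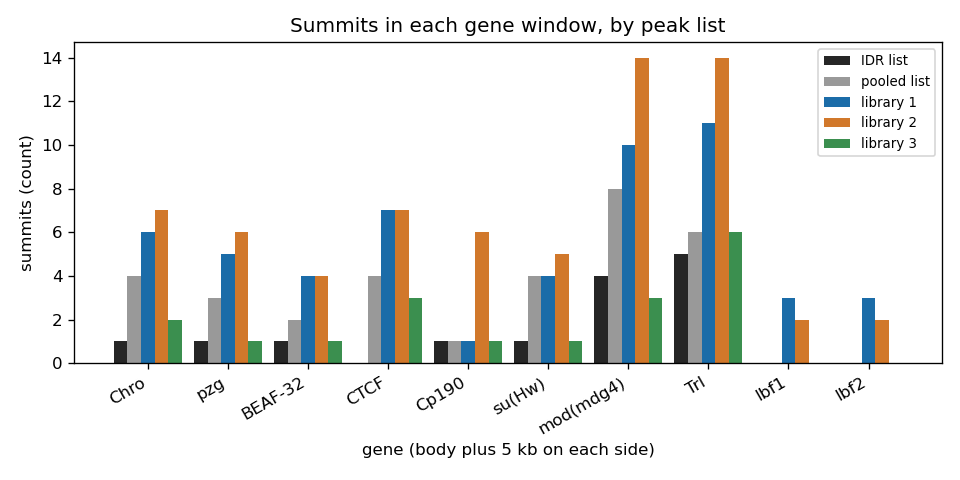
Number of summits in each gene body plus 5 kb on each side, by peak list. Library 2 has the most or shares the most at 8 of the genes and reaches 14 at mod(mdg4) and Trl, where library 3 has 3 and 6.

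The arrangement of the genes was counted as well. A protein-coding gene on the opposite strand started within 1000 bp upstream of 7 of the 10 members, against 33.3% of 13945 protein-coding genes. The pairs were Chro and Ssl1, pzg and CG12974, Cp190 and CG4338, su(Hw) and Polr2I, Trl and Mgat4a, and Ibf1 with Ibf2. Trl and Mgat4a are paired by distance only: Tsen34, on the same strand as Trl, starts between them. Ibf1 and Ibf2 are each other's partner, and both count among the 7. Genome-wide, 23.3% of genes in such pairs had an IDR promoter summit and 10.6% of other protein-coding genes did. The list was made with peaks in view, and paired genes have them more often, so nothing is read from the share of paired members. The paired members were not all alike in this, since Ibf1 and Ibf2 had none, while mod(mdg4) and BEAF-32, unpaired by this distance (1576 and 1046 bp), had one.

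Words known for the insulator proteins themselves were counted at the summits. CGATA was within 50 bp of 2 of the 14 IDR summits, those of Chro and pzg, or 14.3%, against 13.1% of all IDR summits. GAGAG was at 2 as well, in Trl and mod(mdg4), against 12.6%, and AATATT at 2, in Chro and Cp190, against 14.8%. None (0) held TATCGATA, the su(Hw) core TGCATA, the CTCF core AGNNGGCGC or GGTCACACT, the word of the factor M1BP, which occur at 1.12%, 8.70%, 1.43% and 0.651% of all IDR summits. With 14 windows, these counts do not set the summits apart from other IDR summits. Both strands were searched, and CGATA is part of TATCGATA. The median GC content of the 14 windows was 43.1%, from 21.8% at Cp190 to 55.4% at the intronic summit of mod(mdg4), against a median of 34.7% over all IDR summits and 43.6% over windows centred on all annotated TSSs.

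The same words were counted at the starts of the genes. Of the 18 annotated TSSs of the members, 5 had TATCGATA within 50 bp, or 27.8%, against 3.76% of 23581 TSSs. They belong to CTCF, Cp190, Ibf1 and Ibf2, as printed above, and Cp190 counts with 2 starts. CTCF, Ibf1 and Ibf2 have no IDR summit, so the starts and the summits are not compared over the same genes. Genome-wide too, TATCGATA is at a larger share of TSSs than of IDR summits, 3.76% against 1.12%. CGATA stood at 8 of the 18, a count that includes those 5, against 21.4% of all TSSs. Genes with TATCGATA at a TSS had an IDR promoter summit in 17.7% of 870 cases, and other genes in 13.3%.

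Further genes of insulator, cohesin and interband chromatin were counted for comparison. An IDR promoter summit, by the same distance, was found for 8 of 33 genes (24.2%, against 13.5% of all genes). They were 4 of 12 genes for other DNA-binding factors, 1 of 8 for cohesin and condensin, 2 of 6 for partners of insulator proteins and 1 of 7 for interband and remodelling factors. The strongest were shep, an RNA-binding protein gene whose product counters gypsy insulator function in neurons, at 7.76 ± 2.06, psq, a BTB factor gene, at 7.64 ± 2.73, and lola, another BTB factor gene, at 7.55 ± 2.36 (SD, n = 3 each). Dref, the gene of the factor that binds TATCGATA, had 5.82 in library 1 and 4.33 in library 2, at a summit it shares with the ribosomal protein gene RpL13, and no match in library 3. M1BP had 1.99, 1.36 and 5.71 in libraries 1, 2 and 3, a value that rests on library 3, at a summit it shares with CG8202. The bromodomain gene fs(1)h was at 3.38 ± 1.11 (SD, n = 3) and the interband kinase gene JIL-1 at 3.30 ± 0.562 (SD, n = 2). The cohesin subunit gene SA, listed as SA1, had 1.47 in library 1 alone, at a summit it shares with Gas41. None of the 3 cohesin ring genes vtd, SMC1 and SMC3 had an IDR promoter summit.

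The IDR promoter peaks most like those of Chro and Cp190 over the libraries were found by distance between log2 relative signals in the 3 libraries, among 1508 other peaks present in all. For Chro they were at ph-p, a Polycomb group gene (distance 0.205), CG9147 (0.223) and Tcs5 (0.231), with IDR ranks of 13, 15 and 10. For Cp190 they were at Uhg4 (0.0805), ver (0.112) and scb (0.139), at ranks 324, 349 and 316.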

How the data were processed

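The authors deposited narrowPeak lists on dm6 with a signal value per peak, whose scale is not stated. Per the deposited notes, each list was made from alignments and a shared control file, and the IDR list from the library lists and the pooled list, so a match in a library is not independent of the IDR list. Aligner, caller and filters: not given in the sources used here. Read counts were not used here, so depth and its precision are unknown. The members, gene lists, words and settings were chosen with earlier results of these data known. Genes came from Ensembl BDGP6.54, release 115, without transposable elements (18164 genes), and sequence from the Release 6 reference, the assembly of dm6. Coordinates are 1-based. Signals were scaled to the median of each library's list. Summits within 100 bp were matched, taking the strongest, and promoter means within 1000 bp of a TSS. With 1 group of 3 libraries no test between groups exists, so values carry means and SDs over libraries. Named genes are the 10 members, genes sharing their summits, the 3 peaks most similar to each of the strongest 2, and up to 4 genes of each further list; other neighbours, and genes without a peak, were named after their values were seen. SA was matched to SA1 through RefSeq synonyms. Counting was tested on simulated data, with 200 of 200 planted genes recovered over 18164 genes. Alternatives covered distances, peak strength, scaling, windows and leaving out each library. Python 3.11.15, numpy 2.4.6, pandas 2.3.3 and matplotlib 3.10.9 were used.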

Additional observations from a re-analysis of the deposited data

How the results depend on the processing

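The count of 7 members with an IDR promoter summit (13.5% of all genes) became 5 within 500 bp of a TSS (10.5% of genes), which left out su(Hw) and mod(mdg4). It stayed at 7 within 2000 bp (17.9%) and in the gene body window (34.4%), and was 6 with the outermost TSS only (12.2%), a choice made after the data were seen. It fell to 3 among IDR peaks at or above the median signal (7.71%) and to 3 among IDR peaks strong in every library (6.96%), and lay between 3 and 4 with any library omitted (7.36% to 9.20%), in each case with fewer peaks and fewer genes counted. The 4 members matched in every library became 5 within 200 bp and 3 with 50% reciprocal overlap, and ranged from 4 to 5 without a library. The median relative signal of 3.72 was 1.01 when scaled by the median of the strongest peaks of each library, which changes the unit and not the order, was 3.15 with matching within 200 bp, and ranged from 3.72 to 4.40 without a library. The 4.40, without library 1, is a median that lacks BEAF-32, whose summit was matched in library 1 alone. The 32 pooled summits became 50 with 10000 bp on each side, the 14 IDR summits 18. Library 3 had 0.539 times the summits of protein-coding genes over whole windows but 1.99 times per TSS, a comparison added after the data were seen; the cause was not tested. Words within 100 bp of the summit raised AATATT from 2 to 4 summits (28.6%, against 26.0% of all IDR summits). TGCATA rose from 0 to 2 (14.3% against 15.4%) and GAGAG from 2 to 3 (21.4% against 26.4%). CGATA stayed at 2 (14.3% against 24.4%), and the other words stayed at 0. No paired analysis was possible because all libraries belong to 1 group. Limits set by depth could not be assessed without counts.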
